A study of Homo sapiens with 6 samples.

Results

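The outer 5 Mb of the chromosomes were examined for trimethylation of histone H3 at lysine 27 (H3K27me3) in 3 established lines grown from diffuse large B cell lymphomas. The data were lists of islands, intervals of the genome in which reads from chromatin precipitated with an antibody against the mark exceeded reads from unprecipitated input. An island belonged to a chromosome end when its midpoint lay under 5 Mb from base 1 of an autosome or from the last listed base of that autosome. The short arms of chromosomes 13, 14, 15, 21 and 22 were left out, which gave 39 ends, 17 on short arms (p) and 22 on long arms (q). Of 72972 islands in the 3 lists, 7817 belonged to these ends, 2284, 2558 and 2975 in Pfeiffer, WSU-DLCL2 and KARPAS-422. They were compared with the next 5 to 20 Mb of the same arm, which held 5144, 5851 and 7263 islands. The labels describe all 3 lines as EZH2 mutant, without naming the allele, and list no drug treatment; the average gIC50 they give is 28 nM for Pfeiffer, 134 nM for WSU-DLCL2 and 232 nM for KARPAS-422. The series set out to map the mark in lines of unequal sensitivity to GSK126, an inhibitor of EZH2, and the gIC50 is the concentration that inhibits growth by a set amount. Values given as a series of 3 without names are in the order Pfeiffer, WSU-DLCL2, KARPAS-422. A line was represented by 1 library of H3K27me3 and 1 of input. No replicate spread exists for any value, and a difference between lines belongs to these libraries.

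H3K27me3 is laid down by Polycomb repressive complex 2, of which EZH2 is the catalytic subunit, and marks silenced developmental genes in narrow sites or broad domains. EZH2 has a central part in germinal centre B cells, and activating EZH2 mutations in lymphomas that arise from them raise the level of the mark. The ends of human chromosomes beside the telomere repeats are patchworks of duplicated sequence, and the regions further in are often rich in genes and in G and C bases. Some ends hold gene families with tissue-restricted expression, such as the alpha globin genes on 16p, beta-defensin genes on 20p, olfactory receptor genes on 1q and the immunoglobulin heavy chain locus on 14q, which B cells rearrange. None of these genes was placed on the islands, since no gene annotation of the build, hg19, was used.

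Islands covered more of the chromosome ends than of the next 15 Mb inward in every line. The covered share, the bases inside islands divided by the length of the zone, was 45.8% in the outer 5 Mb of Pfeiffer against 34.3% in the next 5 to 20 Mb. WSU-DLCL2 had 44.0% at the ends and 32.2% further in, and KARPAS-422 had 46.1% and 34.0%. The mean difference was 11.8 percentage points ± 0.281 (SD over the 3 lines, n = 3), and all 3 lines had the same direction. An exact sign-flip permutation test over the 3 lines gave a two-sided p of 0.25, the smallest that 3 lines allow. Taken as the median over the 39 arm ends, the difference was 7.50, 11.1 and 10.6 points in Pfeiffer, WSU-DLCL2 and KARPAS-422. The ends made up 6.77% of the autosomal length but held 12.1%, 12.02% and 12.6% of the covered bases in Pfeiffer, WSU-DLCL2 and KARPAS-422. Islands were also more frequent. They numbered 11.7, 13.1 and 15.3 per Mb at the ends against 8.87, 10.1 and 12.5 per Mb further in.

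The covered share did not climb steadily to the very end. In the outermost 1 Mb it was 39.3%, 37.3% and 33.7% in Pfeiffer, WSU-DLCL2 and KARPAS-422. It reached its highest value between 3 and 4 Mb in Pfeiffer (51.4%) and WSU-DLCL2 (48.9%) and between 2 and 3 Mb in KARPAS-422 (52.7%). The outermost 1 Mb had a lower share than the neighbouring 1 Mb at 22 of 39 ends in all 3 lines and a higher one at 6. Just inside the 5 Mb limit, from 4 to 5 Mb, the shares were 41.9%, 42.7% and 45.5%, and just outside it, from 5 to 6 Mb, they were 38.9%, 36.5% and 40.9%. Between 18 and 20 Mb all 3 lines lay between 26.3% and 29.7%, near their autosomal shares of 25.6%, 24.8% and 24.7%. Bases without sequence in the genome build were not taken out of the zones, and how reads that match several places were treated is not given in the sources used here; the part of either in the low outermost 1 Mb was not tested.

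**Figure D1:**
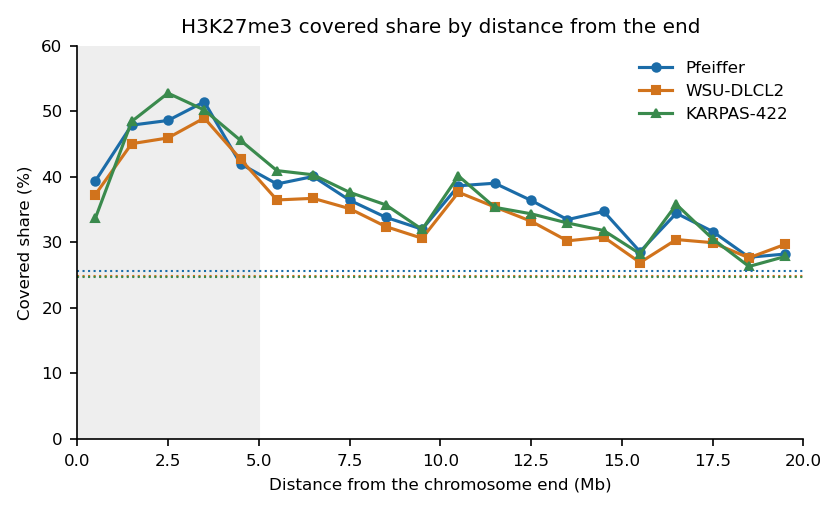
Covered share (percent, y axis) in steps of 1 Mb of distance from the chromosome end (x axis), pooled over the 39 arm ends (38 beyond 15 Mb); lines with points are the 3 cell lines, dotted lines their autosomal shares and the grey field the outer 5 Mb. The share is lowest within the grey field in the outermost 1 Mb, is highest between 2 and 4 Mb and declines inward.

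The first island from base 1 was found at very different distances among the 17 short arm ends. Its start lay between 15 and 753 kb in Pfeiffer (median 151.5 kb), between 0 and 795.75 kb in WSU-DLCL2 (median 110.25 kb) and between 0 and 797.25 kb in KARPAS-422 (median 125.25 kb). Chromosome 1p had the most distant start in all 3 lines. On 20p the outermost island began at 60 kb in each line, on 9p at 204 kb, on 11p at 189.75 kb and on 12p at 155.25 kb, so these starts agreed to the window of 750 bases. Distances from base 1 include any bases without sequence in the build. The part of such bases in equal starts was not tested. On 4p WSU-DLCL2 and KARPAS-422 had an island from 27 kb, whereas the outermost island of Pfeiffer began at 537.75 kb.

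Single arm ends ranged from nearly bare to largely covered. The lowest, median and highest shares were 0.645%, 52.6% and 71.7% in Pfeiffer, 7.84%, 44.7% and 64.98% in WSU-DLCL2, and 0.3%, 49.8% and 75.5% in KARPAS-422. A share of at least 50% was reached at 20, 16 and 19 ends in Pfeiffer, WSU-DLCL2 and KARPAS-422, but in only 7, 3 and 5 of the zones 5 to 20 Mb from the end. The outer zone had the higher share at 31, 32 and 30 of the 39 ends, and at 26 of them in all 3 lines. It had the lower share in all 3 lines at 4 ends, 1p, 3p, 14q and 18p, and the lines differed in direction at the other 9. The differences were -26.1, -28.9 and -23.9 points on 3p and -15.9, -18.3 and -15.1 on 18p. They were only -0.84, -1.11 and -0.22 on 1p, and -1.64, -0.35 and -22.6 on 14q. In the inner zone of 14q KARPAS-422 had 1.41 times its autosomal median of input reads per kb of islands. As a description, Spearman's rho of the outer share across the 39 ends was 0.80 for Pfeiffer with WSU-DLCL2, 0.76 for Pfeiffer with KARPAS-422, and 0.67 when WSU-DLCL2 was set beside KARPAS-422. For the zones 5 to 20 Mb from the end rho was 0.73, 0.75 and 0.72 in the same order of pairs. Ends are not replicates, and ends of 1 line share a library.

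**Figure D2:**
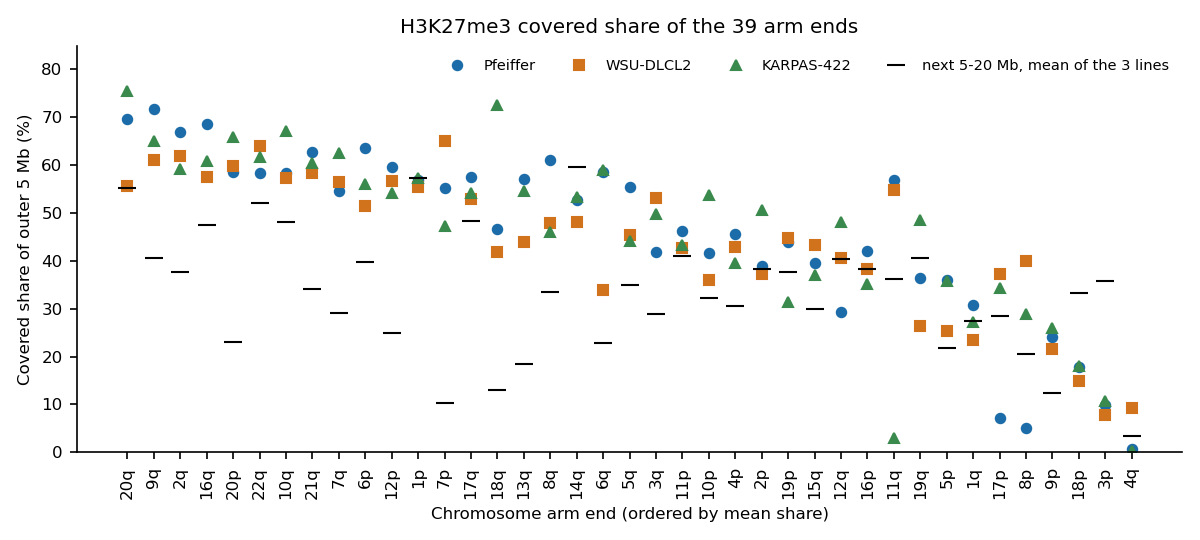
Covered share of the outer 5 Mb (percent, y axis) of each of the 39 chromosome arm ends (x axis, ordered by the mean of the 3 lines); coloured points are the 3 cell lines and black bars the mean share of the next 5 to 20 Mb of the arm. From 20q to 4q the shares run from over 55% to under 10%, and single lines stand apart at 11q, 8p, 17p and 18q.

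The 6 ends with the highest mean share were 20q, 9q, 2q, 16q, 20p and 22q. On 20q islands covered 69.6%, 55.7% and 75.5% in Pfeiffer, WSU-DLCL2 and KARPAS-422. No gene was placed on an island; the genes named here for an arm come from RefSeq's gene order for the assembly GRCh38.p14, were picked after the shares had been seen and serve as background only. The 12 outermost protein-coding genes of this arm include MYT1, a zinc finger factor of neural development, OPRL1, the nociceptin receptor, and SOX18, a transcription factor of vascular development. They stand beside PCMTD2, NPBWR2, LKAAEAR1, RGS19, TCEA2, C20orf204, PRPF6, SAMD10 and ZNF512B. On each arm only some of the 12 are named, and genes of the nervous system are also outermost on 3p, an end of low share. On 9q the shares were 71.7%, 60.97% and 65.0%, and 75.1% of the bases covered in any line were covered in all 3. The outermost genes of 9q include CACNA1B, a subunit of a neuronal calcium channel, and EHMT1, a methyltransferase for lysine 9 of histone H3. The end of 2q had 66.8%, 61.9% and 59.2% covered, and the end of 22q, whose outermost genes include the synaptic scaffold gene SHANK3, had 58.3%, 63.9% and 61.6%. On 20p the shares were 58.6%, 59.8% and 65.9%, far above the 15.2%, 20.2% and 33.6% of the next 15 Mb of that arm. On 16q they were 68.6%, 57.6% and 60.9%. Input reads per kb of islands, relative to the line's own autosomal median, were 1.60, 1.05 and 0.84 on 16q, so the line with the largest share there also had the most input. At the 5 other ends this relative input lay between 0.79 and 1.24. There too the line with the largest share had the highest relative input, in part by little. It was 1.01, 1.01 and 1.10 on 20q, 1.04, 1.00 and 0.79 on 9q, and 1.06, 1.05 and 0.90 on 2q. On 20p it was 1.03, 1.03 and 1.24, and on 22q 0.97, 0.99 and 0.89. The part of input in these differences was not tested.

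The 6 ends with the lowest mean share were 4q, 3p, 18p, 9p, 8p and 17p. On 4q islands covered 0.645%, 9.16% and 0.3% in Pfeiffer, WSU-DLCL2 and KARPAS-422, from 4, 23 and 1 islands, and no base was covered in all 3 lines. The 12 outermost genes of this arm include DUX4, known from the repeat array that is altered in facioscapulohumeral muscular dystrophy, FRG1 and the cadherin gene FAT1. The next 15 Mb of 4q were as bare, with 0.315%, 9.78% and 0.055%. Input reads per kb of islands relative to the autosomal median were 0.70, 1.03 and 0.53 there, from 4, 62 and 1 islands. At the end of 4q they were 0.97, 1.04 and 1.83. The part of input in these low shares was not tested. The end of 3p differed from its surroundings, with 9.90%, 7.84% and 10.7% covered against 36.0%, 36.7% and 34.5% in the next 15 Mb, at relative inputs of 0.99, 0.99 and 1.00. Its outermost genes include CHL1, CNTN6 and CNTN4, adhesion genes of the nervous system. The end of 18p had 17.9%, 14.9% and 17.95% covered against 33.8%, 33.1% and 33.1% further in; its inner zone was stopped at 9.98 Mb length, where a stretch without islands around the centromere began. The end of 9p had 24.1%, 21.6% and 25.9% covered. The ends of 3p, 18p and 9p had similar shares in every line, but 9p lay above its inner zone, which had 14.3%, 9.56% and 13.1%. Similar shares did not mean the same bases. Of the bases covered in any line, 8.27% on 3p, 24.6% on 18p and 18.1% on 9p were covered in all 3, a part that depends on how much is covered. At 8p and 17p Pfeiffer had far lower shares than the other lines.

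**Figure D3:**
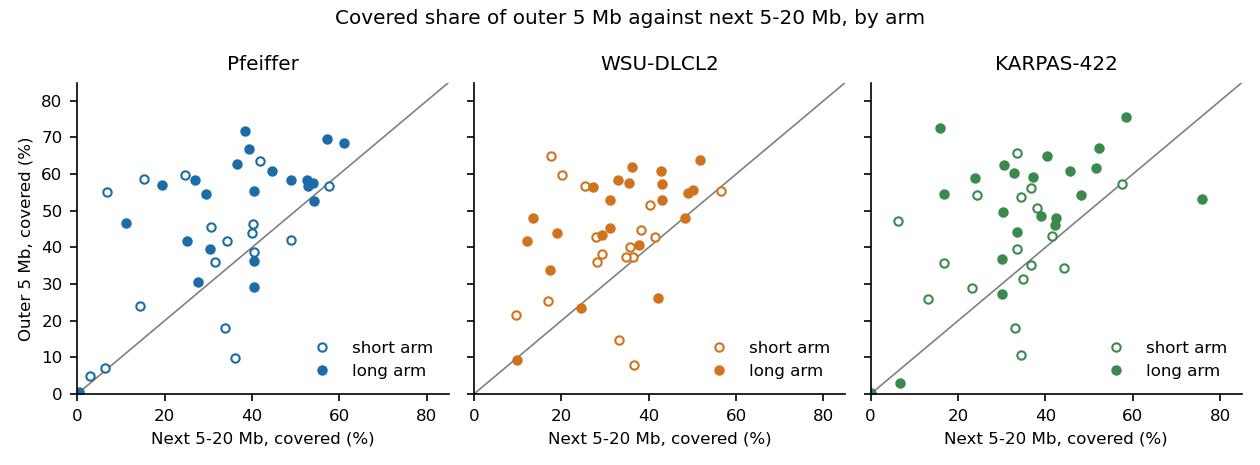
Covered share of the outer 5 Mb (percent, y axis) against that of the next 5 to 20 Mb (percent, x axis) for each of the 39 arms in the 3 cell lines; open points are short arms, filled points long arms, and the line marks equal shares. Most points lie above the line, and 3p and 18p lie well below it in each line.

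Long arm ends had a higher share than short arm ends in all 3 lines, with 51.6%, 47.1% and 50.5% on long arms and 38.4%, 39.8% and 40.5% on short arms in Pfeiffer, WSU-DLCL2 and KARPAS-422. Both kinds exceeded their own inner zones, which had 37.8%, 33.1% and 35.6% on long arms and 29.7%, 31.1% and 31.9% on short arms. Median island length on long arm ends was 24, 20.25 and 18.75 kb and on short arm ends 20.25, 20.25 and 15 kb, so only Pfeiffer and KARPAS-422 had longer islands on the long arms. The ends of the arms were not defined alike: a long arm end was the last base of the outermost island of any line, while a short arm end was base 1 and its zone includes bases without sequence, and the part of this in the difference was not tested.

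The 6 ends at which the lines differed most were 11q, 8p, 18q, 17p, 6q and 19q. On 11q islands covered 56.9% in Pfeiffer and 54.7% in WSU-DLCL2 but 3.04% in KARPAS-422, where 15 islands were listed at a relative input of 0.56. On 8p the shares were 4.96%, 40.003% and 28.96%, with Pfeiffer low, at relative inputs of 0.77, 1.36 and 0.91. On 17p Pfeiffer had 7.05%, against 37.3% and 34.3%, at 0.53, 0.89 and 0.83. In these 3 cases the line with few islands also had the lowest input, and the share of input in the difference was not tested. These 3 gaps were not limited to the ends. The next 5 to 20 Mb of 11q had 52.9%, 49% and 6.655% covered in Pfeiffer, WSU-DLCL2 and KARPAS-422. In that zone 8p had 2.845%, 35.8% and 23.2%, and 17p had 6.265%, 34.75% and 44.4%. The line with few islands again had the lowest relative input there, at 0.544, 0.629 and 0.661 on 11q, 8p and 17p. On 18q KARPAS-422 was high, with 72.6% covered where Pfeiffer had 46.8% and WSU-DLCL2 41.8%, and its relative input was 1.41 against 1.02 and 1.18. On 19q the shares were 36.4%, 26.3% and 48.5% at inputs of 0.90, 0.93 and 1.17. On 6q relative input was nearly even, at 1.01, 0.92 and 0.93, while WSU-DLCL2 had 33.9% covered, Pfeiffer 58.5% and KARPAS-422 59.0%. The highest and lowest line lay 30.8, 25.1 and 22.2 points apart at the ends of 18q, 6q and 19q. In the next 5 to 20 Mb of these arms they lay 4.81, 9.475 and 3.305 points apart.

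Differences of at least 40 percentage points in a step of 1 Mb were few. They were found in 7 of 195 steps at the ends for Pfeiffer set beside WSU-DLCL2 (3.59%), in 9 when it was set beside KARPAS-422 (4.62%) and in 9 for the remaining pair (4.62%). Over all 2871 autosomal bins of 1 Mb the corresponding shares were 2.33%, 3.24% and 2.82%. The shares at the ends were slightly above the background in each pair. Such a difference needs at least 40% covered in 1 of the lines. The ends had 45.8%, 44.0% and 46.1% covered, against 25.6%, 24.8% and 24.7% of the autosomes, so the background is not one of like coverage. Summed over the pairs, 7 such differences lay on 11q, 4 on 8p and 4 on 18q. On 12q, chr12:128809001-129809000 had no island in Pfeiffer, 48.9% covered in WSU-DLCL2 and 56.97% in KARPAS-422. On 10p, chr10:2000001-3000000 had 10.6%, 4.13% and 50.7% covered in Pfeiffer, WSU-DLCL2 and KARPAS-422. In the outermost 1 Mb of 14q, the arm end of the immunoglobulin heavy chain locus, the shares were 55.3%, 13.5% and 26.1%, with Pfeiffer the highest. The part of rearrangement of that locus in these shares was not tested. On 20q, chr20:58914501-59914500 had 91.8% covered in KARPAS-422, 65.0% in Pfeiffer and 28.8% in WSU-DLCL2.

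Median island length differed little between the ends and the zones further in when all islands were used. Median length at the ends was 22.5, 20.25 and 17.25 kb in Pfeiffer, WSU-DLCL2 and KARPAS-422, and further in it was 21, 19.5 and 15.75 kb, which is a difference of 1 or 2 windows of 750 bases. The exact sign-flip permutation test over the 3 lines gave a two-sided p of 0.25. Size and direction depended on the islands and ends used: among islands with a false discovery rate of at most 1e-10, the median at the ends was shorter by 1 window, a difference of -0.75 kb, in each line. When only islands of fold 2 or more were used, it was longer by 7.5, 3 and 3.75 kb, and at the 18 ends of even input by 4.125, 2.25 and 1.5 kb. Quartiles overlapped almost wholly, at 12 and 45 kb for the ends and 12.75 and 41.25 kb further in for Pfeiffer. Islands of at least 100 kb made up 7.53% of the islands at the ends and 7.52% further in in Pfeiffer, 5.39% and 5.40% in WSU-DLCL2, and 4.84% at the ends against 3.65% further in in KARPAS-422. Islands under 5 kb were somewhat more frequent at the ends, at 2.89% against 1.75%, 3.83% against 2.73% and 4.94% against 4.13%.

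Reads of the mark were denser in the islands near the ends. The H3K27me3 reads of an island (column 4 of the lists) were divided by its input reads (column 5); this ratio is not scaled for library size, so its level is comparable within a line only. Its median at the ends was 2.07, 2.09 and 3.24 in Pfeiffer, WSU-DLCL2 and KARPAS-422, and further in it was 1.89, 1.98 and 2.73. The ends were thus 1.10, 1.06 and 1.19 times as high. The exact sign-flip permutation test over the 3 lines again gave a two-sided p of 0.25. The ends had the higher median ratio at 35, 24 and 33 of 39 arms in Pfeiffer, WSU-DLCL2 and KARPAS-422. At the 18 ends where input lay within 15% of the median in all 3 lines, the difference in median ratio was 0.139, 0.0408 and 0.369, against 0.185, 0.114 and 0.515 over all ends. In WSU-DLCL2 the difference was therefore small at ends of even input.

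The parts of the ratio did not behave alike in the 3 lines. Median H3K27me3 reads per kb of island were 1.13, 1.09 and 1.11 times as high at the ends as further in. Median input reads per kb were 1.02 and 1.03 times as high in Pfeiffer and WSU-DLCL2, but only 0.928 times as high in KARPAS-422. In KARPAS-422 relative input was under 0.85 at 13 of 39 ends, while Pfeiffer had 2 such ends and WSU-DLCL2 had 1. The outermost 2 Mb had the most H3K27me3 reads per kb, at 1.21 times the autosomal median in both steps in Pfeiffer, 1.17 and 1.14 times in WSU-DLCL2 and 1.13 times in both in KARPAS-422. Input in those steps was 1.05 and 1.01, 1.03 and 1.01, and 0.889 and 0.85 times the median. Base composition was not measured here, and its part in the input of KARPAS-422 was not tested.

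**Figure D4:**
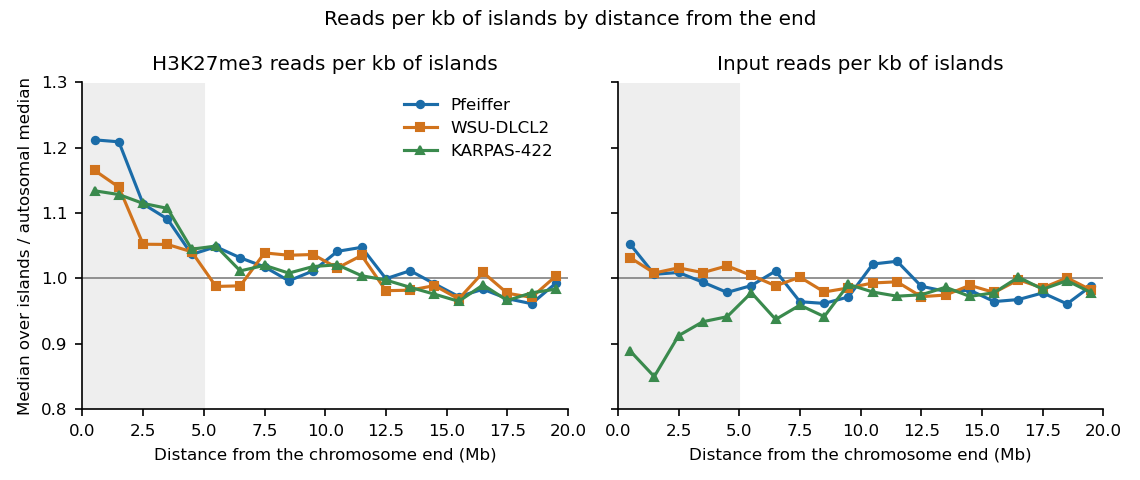
Median H3K27me3 reads (left) and input reads (right) per kb of island, divided by the median over all autosomal islands of the line (y axis), in steps of 1 Mb from the chromosome end (x axis, grey field the outer 5 Mb), for the 3 cell lines. H3K27me3 reads per kb are 1.13 to 1.21 times the autosomal median in the outermost 1 Mb of the lines, while input is below the median towards the end in KARPAS-422.

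The higher ratio was present in each class of length. For islands of 5 to 20 kb the median was 1.95 at the ends against 1.83 further in for Pfeiffer, 2.00 against 1.92 for WSU-DLCL2 and 3.07 against 2.68 for KARPAS-422. For islands of at least 100 kb it was 2.35 against 2.10, 2.42 against 2.23 and 3.86 against 3.18. The smallest gap was in WSU-DLCL2 islands under 5 kb, at 2.34 against 2.33 with 98 and 160 islands. On the authors' own scale, 661 of the 2284 islands at the ends of Pfeiffer had a fold over input of 2 or more (28.9%), as had 566 of 2558 in WSU-DLCL2 (22.1%) and 1434 of 2975 in KARPAS-422 (48.2%). Over all autosomal islands 10.5%, 11.3% and 19.6% reached it, and in the next 5 to 20 Mb 13.4%, 11.8% and 21.4%. The ends therefore held 29.6%, 21.7% and 26.5% of all autosomal islands of that fold.

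A larger part of the covered bases was shared between lines at the ends than further in. The Jaccard index, the bases covered in both lines divided by the bases covered in either, was 0.677 at the ends against 0.584 further in for Pfeiffer and WSU-DLCL2. For Pfeiffer with KARPAS-422 it was 0.669 at the ends and 0.574 further in, and the remaining pair had 0.666 and 0.572. Of the 114 Mb covered in any line at the ends, 54.2% was covered in all 3, 24.1% in 2 and 21.7% in 1. Further in these shares were 42.7%, 28.1% and 29.2%. The index was the higher one at the end of 29, 29 and 27 of 39 arms in the same order of pairs. The 3 pairs share lines and were not tested.

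The index depends on how much is covered, and zones of like coverage differed less. With zones limited to those of 35 to 55% covered share in every line, a range chosen after the shares had been seen, 8 ends and 10 inner zones remained. Their indices were 0.685 against 0.668, 0.691 against 0.632 and 0.682 against 0.642 in the same order of pairs. The differences of 0.0177, 0.0598 and 0.0399 compare with 0.0927, 0.0953 and 0.0940 for all zones.

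**Figure D5:**
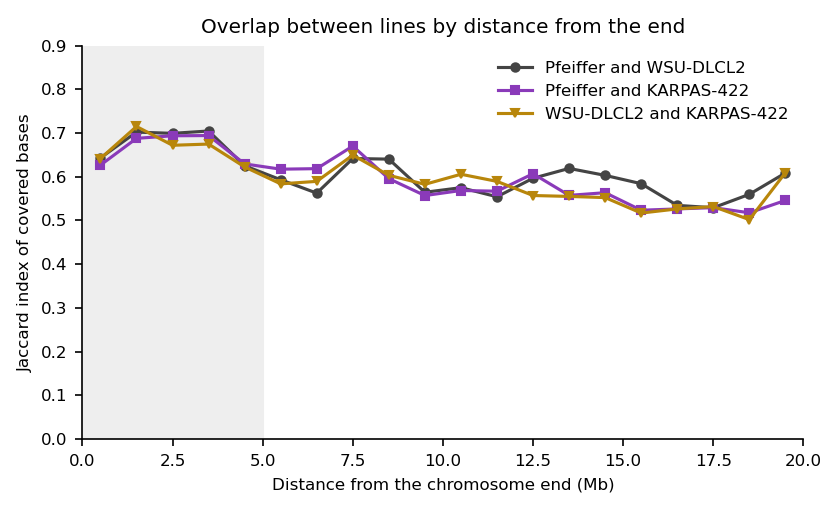
Jaccard index of covered bases (y axis) for the 3 pairs of cell lines in steps of 1 Mb of distance from the chromosome end (x axis), pooled over the arm ends; the grey field is the outer 5 Mb. The index lies near 0.7 from 1 to 4 Mb, lower in the outermost 1 Mb, and between 0.50 and 0.62 beyond 10 Mb. From 4 to 10 Mb it lies between 0.56 and 0.67. The step from 7 to 8 Mb, outside the grey field, has 0.64 to 0.67, above the 0.62 to 0.63 from 4 to 5 Mb.

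Counted by island, 1729 of 2284 islands at the ends of Pfeiffer met an island of both other lines (75.7%), as did 1976 of 2558 in WSU-DLCL2 (77.2%) and 2056 of 2975 in KARPAS-422 (69.1%). In the next 5 to 20 Mb the shares were 67.6%, 67.6% and 59.6%, and over all autosomal islands 65.8%, 64.6% and 60.3%. The exact sign-flip permutation test over the 3 lines gave a two-sided p of 0.25 for the mean difference of 9.06 percentage points ± 0.841 (SD, n = 3). Islands that met no other line numbered 131 (5.74%), 168 (6.57%) and 346 (11.6%) at the ends, against 10.8%, 12.2% and 16.2% of all autosomal islands. At the ends these were short, with medians of 12, 10.5 and 10.5 kb in length, while the islands met by both other lines had 27.75, 24 and 22.5 kb. Their median ratio was also lower, at 1.79, 1.91 and 2.68, where islands that met both had 2.15, 2.13 and 3.44. A longer island is more likely to touch another by 1 base, so length and sharing are not independent here. Like the Jaccard index, these shares of islands depend on how much is covered. They were not compared in zones of like coverage.

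Bases covered in all 3 lines formed 2793 stretches at the ends, with a median of 14.25 kb, and 56 of them were at least 100 kb long. The 10 longest lay on 9q, 17q, 14q, 16q, 12p, 3q and 8q, with 3 on 16q and 2 on 9q. The longest was chr9:136344751-136560750, of 216 kb. The islands that contained it began at the same base in all 3 lines and were 264.75, 216 and 217.5 kb long in Pfeiffer, WSU-DLCL2 and KARPAS-422. Their ratios, in the same order, were 2.97 (95% interval 2.86 to 3.096), 2.67 (2.55 to 2.79) and 4.67 (4.40 to 4.95), at relative inputs of 1.11, 1.09 and 0.845. Such intervals hold counting error alone; copies made by PCR could not be told from separate molecules. The next, chr17:77280751-77495250, was 214.5 kb long and ended at the same base in all lines, with ratios of 2.80, 2.47 and 4.44. In Pfeiffer it was part of an island of 411.75 kb at a relative input of 1.68. On 14q, chr14:105007501-105217500 lay within islands of 256.5, 210 and 258 kb with ratios of 2.63, 2.67 and 4.19.

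The 3 stretches on 16q were chr16:85448251-85644000, chr16:87546001-87726000 and chr16:88439251-88633500, of 195.75, 180 and 194.25 kb. The outermost of them had nearly the same borders in each line, with island lengths of 196.5 kb, 194.25 kb and 196.5 kb in Pfeiffer, WSU-DLCL2 and KARPAS-422 and ratios of 2.82, 2.69 and 4.58. Relative input of these islands was 1.57, 1.00 and 0.750, so equal borders were found at unequal input. On 3q, chr3:193673251-193851750 lay within islands of very different length, 282 kb, 620.25 kb and 430.5 kb in Pfeiffer, WSU-DLCL2 and KARPAS-422, at relative inputs of 1.02, 2.11 and 1.57. The order of island lengths here was the order of input, as it was on 8q at chr8:142314001-142492500, within islands of 669, 367.5 and 178.5 kb at inputs of 1.71, 1.10 and 0.837. The reverse order was found at chr16:85448251-85644000, within islands of 195.75, 197.25 and 246.75 kb at inputs of 1.75, 1.00 and 0.787, and at chr9:137565751-137757000, within islands of 206.25, 267 and 381 kb at 1.09, 1.08 and 0.817.

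The longest islands of each line at the ends often lay where that line had raised input. In Pfeiffer these were chr8:141972751-142641750 (669 kb), chr16:86780251-87358500 (578.25 kb) and chr8:142970251-143403000 (432.75 kb), with relative inputs of 1.71, 1.59 and 1.66 and ratios of 2.43, 2.24 and 2.35. In WSU-DLCL2 they were chr3:193422001-194042250 (620.25 kb), chr7:3856501-4299750 (443.25 kb) and chr8:1734001-2164500 (430.5 kb), with relative inputs of 2.11, 1.56 and 1.37 and ratios of 2.15, 2.20 and 2.03. In KARPAS-422 the longest, chr20:59612251-60517500, was 905.25 kb long and held 29727 H3K27me3 reads and 7317 input reads. Its ratio was 4.06 (95% interval 3.96 to 4.17) at a relative input of 1.08, above the median ratio of 3.24 at the ends of that line. The other 2 were chr14:104388001-104878500 (490.5 kb, ratio 3.87, input 1.22) and chr3:193421251-193851750 (430.5 kb, ratio 2.80, input 1.57).

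Islands of 1 line that lay more than 10 kb from any island of the others and held 50 or more H3K27me3 reads numbered 84, 116 and 238 in Pfeiffer, WSU-DLCL2 and KARPAS-422 at the ends. That was 3.68%, 4.53% and 8% of the islands at the ends, where 5.70%, 6.36% and 12.7% of the islands in the next 5 to 20 Mb and 7.1%, 8.17% and 12.2% of all autosomal islands met the same rule. The rule is harder to meet where more is covered, as at the ends, and zones of like coverage were not compared. Their median lengths at the ends were 12.375, 11.25 and 10.5 kb. The longest of Pfeiffer was chr18:74091751-74152500, of 60.75 kb, with 1284 H3K27me3 and 709 input reads and a ratio of 1.81 (95% interval 1.65 to 1.99). A pair of neighbouring islands of Pfeiffer on 14q, chr14:106608001-106647750 and chr14:106650751-106699500, had ratios of 2.16 (1.90 to 2.47) and 1.98 (1.79 to 2.20). Their relative inputs were 0.780 and 1.02. Loss of DNA there in the other lines was not tested. On 8q, chr8:141915751-141969000 had a ratio of 1.48 at a relative input of 1.56. The longest of WSU-DLCL2 were chr8:2737501-2829000 and chr4:186692251-186777750, of 91.5 and 85.5 kb, followed by chr8:2659501-2734500 (75 kb) and chr4:186648001-186686250 (38.25 kb). On 8p their ratios of 1.49 and 1.503 were below the median of 2.09 for the ends of that line, at inputs of 1.36 and 1.26. On 4q, an end nearly without islands in the other lines, the ratios were 1.83 (1.69 to 1.99) and 1.56 (1.38 to 1.76) at inputs of 1.02 and 1.11.

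In KARPAS-422 the longest islands of this kind were chr17:78267751-78332250 (64.5 kb), chr19:57444751-57508500 (63.75 kb), chr12:128862001-128919000 (57 kb) and chr18:75948001-75999750 (51.75 kb). Their ratios were 2.90 (2.59 to 3.26), 2.26 (2.05 to 2.49), 2.81 (2.503 to 3.16) and 2.43 (2.19 to 2.69), each below the median of 3.24 for the ends of that line. Relative input was 0.813, 1.22, 0.924 and 1.37. The absence of an island in another list means that too few reads were found there for a call, not that the mark was missing.

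Between the islands, 41.5% of the outer 5 Mb had no island in any line, against 52.9% of the next 5 to 20 Mb. Cut at the zone limits, it formed 2289 stretches with a median of 9 kb, of which 186 were at least 100 kb and 3 at least 1 Mb long. The longest was chr4:187141501-189974250, of 2832.75 kb, followed by chr3:425251-2594250 (2169 kb), chr8:3761251-4849500 (1088.25 kb), chr18:941251-1927500 (986.25 kb) and chr15:97391251-98327250 (936 kb). The last of these was cut at the 5 Mb limit and ran on inward to 1424.25 kb in all. Of these 5, 4 lay at ends that were among the 6 lowest in covered share, and the fifth lay on 15q, where the shares were 39.6%, 43.3% and 37.0%.

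The lists gave 2358326 H3K27me3 reads in islands at the ends for Pfeiffer, 2252156 for WSU-DLCL2 and 2222220 for KARPAS-422, with 1055805, 995365 and 645246 input reads. The median island at the ends held 244.5, 221 and 118 input reads and the lowest 10, 10 and 2, so single ratios were least precise in KARPAS-422.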

How the data were processed

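Chromatin of formaldehyde-fixed cells was precipitated with an antibody against H3K27me3 and sequenced beside input, per the labels' protocols. The submitters' processing notes name Bowtie, SICER and the build hg19, with versions not given in the sources used here; the deposited lists are named for a window of 750 bases, a gap of 2250 and a false discovery rate of 0.001. Per island the authors deposited whole counts of H3K27me3 and input reads, a p-value, a q-value (false discovery rate) and a fold (ratio) over scaled input. Column meanings were read from the values and the usual SICER layout. No full library depth was used.

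Positions are printed counted from 1. Covered bases were counted in windows of 750 bases whose midpoint lay in a zone; islands were assigned by midpoint. Ends were base 1 and the last listed base. Each inner zone was kept short of its chromosome's longest stretch without islands, which shortened 18p only. Overlap needed 1 base. Intervals of count ratios are 95% and exact. Relative input is input reads per kb of islands divided by the autosomal median over islands. No test was made across arms or islands. The code was tested on simulated lists.

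The outer 5 Mb, the lists and the alternatives were chosen with earlier results of these data known. Named ends and intervals followed a rule: the 6 highest, 6 lowest and 6 most variable ends, the 10 longest stretches covered in all lines, 3 longest islands per line, 4 longest of a single line and 5 longest stretches without islands; the steps of 1 Mb named for 10p, 12q, 14q and 20q, and the short arm starts, 4p among them, were picked after their values were seen. No hg19 annotation or genome was used here, so the planned gene list was not counted and no sequence is printed; outermost genes come from RefSeq's order for GRCh38.p14, without coordinates, and, outside that rule, were picked after the shares were seen. All values were computed in Python 3.11.15 with scipy 1.17.1, numpy 2.4.6 and pandas 2.3.3, and drawn with matplotlib 3.10.9.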

Additional observations from a re-analysis of the deposited data

Results flagged for a closer look

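Islands on chromosome X lay outside the comparisons of the report. Its outer 5 Mb held 18 islands at the p end and 18 at the q end in Pfeiffer, 18 and 23 in WSU-DLCL2, and 60 and 58 in KARPAS-422. Of the 60, 114 and 883 islands listed on X in Pfeiffer, WSU-DLCL2 and KARPAS-422, the p and q ends held 30% and 30%, 15.8% and 20.2%, and 6.80% and 6.57%. They covered 6.05% and 7.74%, 4.80% and 7.80%, and 13.4% and 22.5% of these ends.

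At 9 arm ends the outer share was above that of the next 5 to 20 Mb in at least 1 line and below it in another. The differences in percentage points for Pfeiffer, WSU-DLCL2 and KARPAS-422 were -4.09, -15.9 and 9.56 on 19q, a gap of 25.5 between the highest and the lowest line. They were -11.3, 2.83 and 5.72 on 12q (gap 17), -7.09, 9.09 and -1.74 on 16p (gap 16.2), and -1.64, 0.80 and 12.6 on 2p (gap 14.3). On 17p they were 0.78, 2.58 and -10.1 (gap 12.7), on 19p 3.91, 6.44 and -3.64 (gap 10.1), and on 11q 3.95, 5.75 and -3.61 (gap 9.36). On 1q they were 2.95, -1.12 and -2.84 (gap 5.78) and on 4q 0.33, -0.61 and 0.24 (gap 0.94). With 1 library per line, none of these differences between lines was tested.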

How the results depend on the processing

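The differences between the outer 5 Mb and the next 5 to 20 Mb are given for Pfeiffer, WSU-DLCL2 and KARPAS-422 in that order; those in Jaccard index are for Pfeiffer and WSU-DLCL2, Pfeiffer and KARPAS-422, and WSU-DLCL2 and KARPAS-422. Differences in covered share, ratio, Jaccard index and islands met by both other lines stayed positive under every alternative run; length did not. No paired analysis was possible because each line has 1 library of each kind, so no replicate numbers pair samples across lines; the sign-flip test itself pairs the 2 zones within a line.

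At a false discovery rate of at most 1e-10, covered share differed by 12.8, 12.03 and 14.2 points, median length by -0.75, -0.75 and -0.75 kb, ratio by 0.176, 0.116 and 0.486, Jaccard index by 0.105, 0.0949 and 0.103, and islands met by both other lines by 10.1, 13.7 and 9.01 points. With a fold of at least 2 they differed by 12.2, 7.03 and 17.7 points, 7.5, 3 and 3.75 kb, Jaccard 0.0683, 0.0967 and 0.0595, and 11.0, 21.8 and 7.99 points; the ratio was not recomputed, since fold selects on it. With the outer 2.5 Mb, covered share differed by 10.04, 9.16 and 8.97 points, length by 1.5, 0.75 and 0 kb, ratio by 0.262, 0.183 and 0.73, and Jaccard by 0.0977, 0.09997 and 0.112. Against the next 5 to 10 Mb the values were 9.6, 9.71 and 8.8 points, 0.75, 1.5 and 0.75 kb, ratio 0.141, 0.103 and 0.386, and Jaccard 0.0774, 0.0563 and 0.065. With the 18 ends of even input only, they were 12.9, 11.0 and 14.5 points, 4.125, 2.25 and 1.5 kb, ratio 0.139, 0.0408 and 0.369, and Jaccard 0.0698, 0.102 and 0.0705. With islands under 5 kb apart joined, they were 11.9, 12.1 and 12.7 points, 3, 1.5 and 3 kb, ratio 0.203, 0.128 and 0.532, and Jaccard 0.0941, 0.098 and 0.095.

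Covered share from whole islands by midpoint differed by 11.7, 11.8 and 12.2 points, and as the median over arm ends by 7.5, 11.1 and 10.6 points. Mean length differed by 0.57, 1.58 and 3.1 kb, and the ratio of summed reads by 0.25, 0.157 and 0.556. With overlap over 50% of an island, islands met by both other lines differed by 9.97, 11.8 and 10.5 points. In zones of 35 to 55% covered share, chosen after seeing the data, Jaccard differed by 0.0177, 0.0598 and 0.0399. Steps of 1 Mb that differed by at least 30 points numbered 16, 15 and 17, against 7, 9 and 9 at 40 points; at 30 points that was 8.21%, 7.69% and 8.72% of the steps at the ends and 4.98%, 6.20% and 6.03% of all autosomal bins. The cause of these shifts was not tested. Input reads limit precision most in KARPAS-422, with a median of 118 per island at the ends.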
